A study of Mus musculus with 22 samples.

Results

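Mup1, Mup2, Mup3, Mup7, Mup10, Mup11, Mup17, Mup20 and Mup21 are 9 of the major urinary protein genes of the mouse. They were taken as the rows of the deposited count table that carry these symbols, 9 of 55573 rows. All 9 had a mean count of at least 10 over the libraries and were among the 14062 genes tested. The study asked how loss of folliculin (Flcn) in the liver alters the response to a diet lacking methionine and choline, a model of steatohepatitis. Poly(A)-selected RNA from 22 livers of C57BL/6 mice was sequenced, with 13751347 to 21144388 counted reads per library.

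The 4 groups were set by genotype and diet. Every mouse carried the Albumin-Cre transgene, in which the albumin promoter drives Cre recombinase in hepatocytes. Cre mice had wild-type Flcn on both alleles, and FLCN KO mice (liver-Flcn-/-) had floxed Flcn alleles, so that the other cells of the liver kept the gene. From 6 weeks of age and for 6 weeks, the mice ate either a chow with 10 kcal percent fat (Cre Chow, 6 libraries; FLCN KO Chow, 5 libraries) or the methionine- and choline-deficient diet (Cre MCD, 5 libraries; FLCN KO MCD, 6 libraries). The 2 diets came from different makers, and other differences between them cannot be told apart from the lack of methionine and choline. Flcn itself, counted over the whole gene, stood at 31.7 ± 4.91 CPM (counts scaled to library size; SD, n = 6) in Cre Chow and 20.4 ± 2.78 (SD, n = 5) in FLCN KO Chow, and at 29.2 ± 8.42 (SD, n = 5) in Cre MCD and 26.0 ± 5.13 (SD, n = 6) in FLCN KO MCD. It was lower in FLCN KO livers on chow (log2 fold change -0.63 ± 0.17 SE, adjusted p = 0.0249 by the edgeR quasi-likelihood test) and not called on MCD (-0.16 ± 0.17, adjusted p = 0.567). The Cre removes part of the gene only, and reads from the rest are still counted.

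Major urinary proteins are small secreted lipocalins, barrel-shaped proteins that hold a hydrophobic ligand. The liver secretes them into the blood, the kidney filters them, and in urine they bind and slowly release pheromones; Mup20, also named darcin, is itself a male signal that attracts females. Hepatocytes of adult males make far more of them than those of females, because transcription follows the pulsed secretion of growth hormone through its receptor and STAT5B, and androgens, thyroid hormone and glucocorticoids add to it.

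Because of this difference between the sexes, the sex of each liver had to be read from the counts, since the labels do not give it. In 10 livers the 4 Y-linked genes Ddx3y, Uty, Kdm5d and Eif2s3y summed to 1906 to 4321 counts with 0 to 19 counts of Xist, the RNA of the inactive X chromosome. In the other 12 livers Xist stood at 5411 to 7573 counts. They are called Y livers and Xist livers here. Each group held both kinds: Cre Chow 3 Y and 3 Xist livers, Cre MCD 2 and 3, FLCN KO Chow 2 and 3, and FLCN KO MCD 3 and 3. The 5 Y livers on chow were also the 5 libraries on chow with a low share of uniquely mapped reads in the study's read statistics. In 5 of the 12 Xist livers the Y-linked genes also had over 100 counts, namely Cre Chow 2 (180), FLCN KO Chow 2 (451), FLCN KO Chow 4 (214), Cre MCD 1 (675) and FLCN KO MCD 3 (224). In these livers the 2 signs of sex stood side by side. Without them 3 Xist livers remain on chow (Cre Chow 3 and 4 and FLCN KO Chow 5) and 4 on MCD, and the main results on Xist livers are given with and without them. FLCN KO Chow is then 1 liver, and calls that involve it rest on a spread taken from the other groups.

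The 9 genes lie on the minus strand in a cluster on chromosome 4 (GRCm38, GENCODE M21, chr4:59956804-62150863) that holds 48 genes and pseudogenes of the family and 0 coding genes of other kinds. One more pseudogene, Mup-ps22, is annotated on chromosome 11. Of the 49, 22 are coding genes and 27 pseudogenes. From low to high coordinates the members are Mup7 (chr4:60066469-60070475), Mup2 (chr4:60135932-60154289), Mup1 (chr4:60498012-60501960), Mup10 (chr4:60578260-60582199), Mup11 (chr4:60658466-60662411) and Mup17 (chr4:61591929-61595871), the central members, and then Mup20 (chr4:62050234-62054158), Mup3 (chr4:62083476-62087342) and Mup21 (chr4:62147932-62150863) at the upper end. The central members are near copies of each other, with coding sequences identical at 98.34% to 99.44% of aligned positions. Mup20 matched them at 90.06% to 91.34%. Mup3 and Mup21 matched each other at 94.75% and every other member at 82.34% to 87.89%.

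The same stretch of 75 bases, the read length of the study, shows what this means for counting. In the coding sequence of Mup7 the bases 290 to 364 below occur without a change in 16 Mup genes, Mup1, Mup2, Mup10, Mup11 and Mup17 among them, and a read from there cannot be given to 1 of them. The matching stretches of Mup20, Mup3 and Mup21 differ at 9, 12 and 12 bases, which are in capitals.
Mup7: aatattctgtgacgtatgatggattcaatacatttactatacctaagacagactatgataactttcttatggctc
Mup20: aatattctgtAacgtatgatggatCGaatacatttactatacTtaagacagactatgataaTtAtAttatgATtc
Mup3: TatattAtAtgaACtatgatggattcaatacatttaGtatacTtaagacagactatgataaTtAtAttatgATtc
Mup21: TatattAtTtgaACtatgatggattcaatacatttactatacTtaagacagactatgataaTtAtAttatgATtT

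Reads that set Mup7 apart come from few places. The stretch of bases 82 to 156 of its coding sequence occurs in Mup7 alone. The matching stretch of Mup1 differs at 1 base, that of Mup20 at 5 and that of Mup3 at 17 (capitals again mark bases that differ from Mup7).
Mup7: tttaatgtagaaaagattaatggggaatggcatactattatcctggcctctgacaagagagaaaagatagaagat
Mup1: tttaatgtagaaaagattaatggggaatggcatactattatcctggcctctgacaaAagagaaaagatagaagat
Mup20: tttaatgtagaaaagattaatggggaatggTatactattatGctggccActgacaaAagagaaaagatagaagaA
Mup3: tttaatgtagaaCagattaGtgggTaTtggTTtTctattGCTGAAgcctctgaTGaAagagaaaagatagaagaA

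Over whole transcripts, 94.6% of the 75-base windows of Mup3, 89.7% of those of Mup21 and 56.4% of those of Mup20 occurred in no other annotated gene. The shared windows of Mup20 were shared with Mup-ps19, a pseudogene, and not with a central member. For the central members the share was 42.2% in Mup1, 31.3% in Mup17, 26.3% in Mup11, 25.7% in Mup10, 22.2% in Mup2 and 18.9% in Mup7. Reads from the shared stretches map to several genes and are lost where only unique reads are counted. The counts of the central members would then stand for a fraction of their RNA. Mup15, Mup19 and Mup22 had 0 windows of their own and still had mean counts of 20.4, 309.9 and 1088. The annotation release and the counting setting behind the table are not given in the sources used here, and where those counts come from was not tested.

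**Figure D1:**
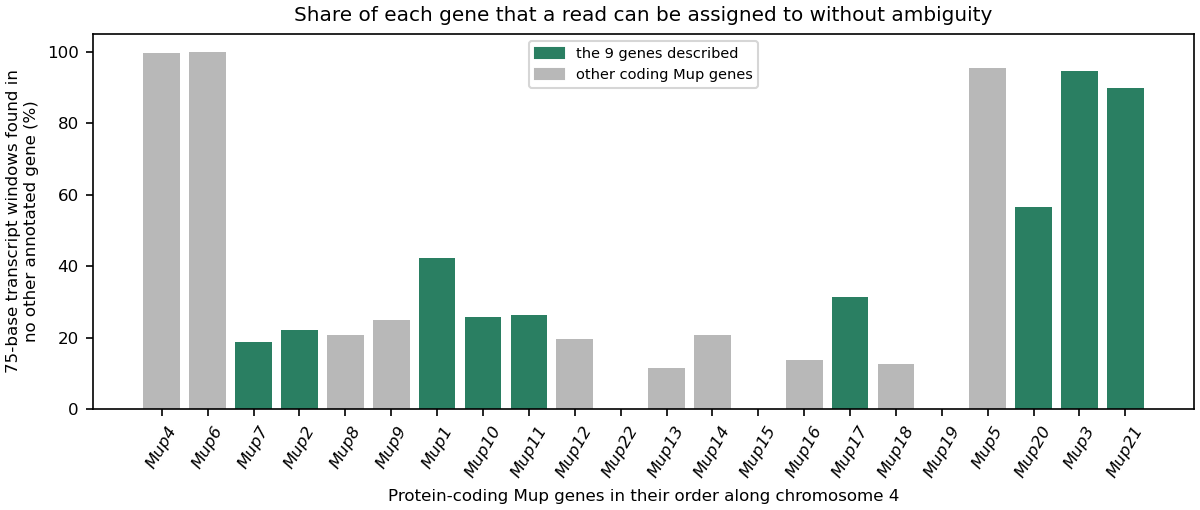
Share of 75-base transcript windows (%, bars from 0) that occur in no other annotated gene, for the 22 coding Mup genes in their order along chromosome 4; the 9 genes described are in green. Mup3 (94.6%), Mup21 (89.7%) and Mup20 (56.4%) stand above the central members (18.9% to 42.2%).

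The 250 bases before the annotated starts, from RefSeq (GRCm38.p6), were at hand for 7 of the members. Mup17 (chr4:61595833-61596082, minus strand) and Mup3 (chr4:62087318-62087567, minus strand) are shown, 5′ to 3′, as a central and an outer member that fell together on MCD. Capitals mark TATATAAG, a TATA box, the only motif besides TTCNNNGAA, the core of a STAT site, that was looked for on both strands.
Mup17: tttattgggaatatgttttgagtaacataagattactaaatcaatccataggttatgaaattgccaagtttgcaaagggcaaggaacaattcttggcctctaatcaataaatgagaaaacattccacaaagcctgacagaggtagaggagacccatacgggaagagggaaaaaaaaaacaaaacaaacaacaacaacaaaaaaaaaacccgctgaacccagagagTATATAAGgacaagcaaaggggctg
Mup3: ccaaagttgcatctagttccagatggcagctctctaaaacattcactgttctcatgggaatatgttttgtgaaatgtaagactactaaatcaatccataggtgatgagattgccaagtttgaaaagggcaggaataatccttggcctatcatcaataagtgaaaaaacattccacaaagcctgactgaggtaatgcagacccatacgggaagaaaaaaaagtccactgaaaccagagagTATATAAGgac

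TATATAAG was found in the windows of Mup2, Mup3, Mup10, Mup17 and Mup21 and in 0.934% of the 32851 RefSeq promoter windows of this length. The windows of Mup7 and Mup11 stop before the end of the place where that of Mup17 holds it. Its absence there thus depends on the annotated starts, and the bases beyond were not searched. TTCNNNGAA was found in 0 of the 7 windows and in 7.02% of all windows. The window of Mup17 was identical to that of Mup2 at 97.98% and to that of Mup3 at 74.58% of aligned positions.

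The first question was what share of all counts the 9 members held. This is not the family's share of the liver's RNA, since other Mup rows are left out and shared reads may be lost. The 9 members together held 2.43% to 3.26% of all counts in the 3 Y livers of Cre Chow and 2.00% to 2.06% in the 2 Y livers of FLCN KO Chow. In the Xist livers on chow they held 0.364% to 0.559% (Cre) and 0.229% to 0.626% (FLCN KO). On MCD the share was 0.0381% to 0.0971% in the 5 Cre livers and 0.0322% to 0.05004% in the 6 FLCN KO livers. Thus the groups on the 2 diets did not overlap, and the lowest chow liver, an Xist liver of FLCN KO mice, still lay above the highest MCD liver.

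The makeup of the members' counts changed as well. In Y livers of both genotypes on chow Mup3 made up 52.1% ± 6.37 of the members' counts, Mup7 18.2% ± 1.24 and Mup20 17.4% ± 7.597 (SD, n = 5). Among these 5 Y livers the order of Mup7 and Mup20 differed between the genotypes, a difference that was not tested. Mup20 had fewer CPM than Mup7 in the Cre Y livers (3486, 3173 and 5700 against 5369, 5484 and 7079). In the FLCN KO Y livers it had more (5455 and 5744 against 4468 and 3779). In Xist livers on chow Mup3 made up 88.9% ± 6.48 (SD, n = 6), and 93.8% ± 4.40 (SD, n = 3) without the livers that also held Y-linked counts. On MCD Mup20 came first in every liver, with 61.8% ± 5.74 in Y livers (SD, n = 5) and 68.2% ± 8.84 in Xist livers (SD, n = 6), and Mup3 held 30.9% ± 3.12 and 26.7% ± 7.28. In the 4 Xist livers on MCD without many Y-linked counts Mup20 had 70.1% ± 8.31 (SD, n = 4). Mup7 had fallen to 1.21% ± 0.891 and 0.300% ± 0.371.

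**Figure D2:**
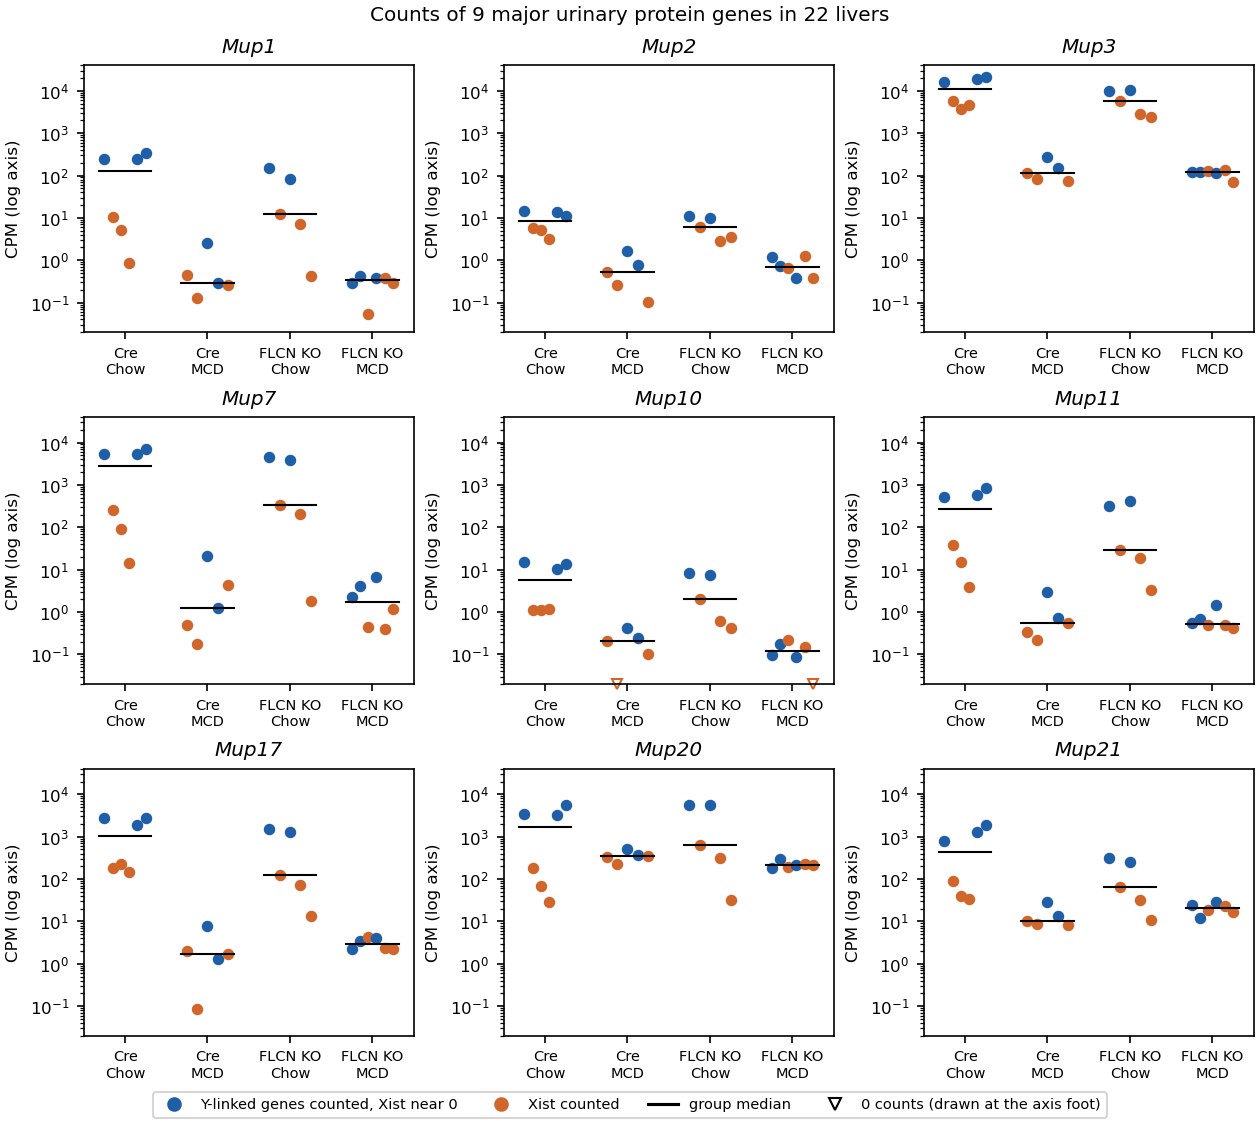
CPM (log axis) of the 9 genes in each of 22 livers by group; blue points are Y livers, orange points Xist livers, black lines group medians, and open triangles 2 livers with 0 counts of Mup10. On chow the Y livers lie above the Xist livers in all 9 panels, on MCD both lie low and close together, and in Mup20 the MCD livers (185 to 526 CPM) lie between the Y and the lowest Xist livers on chow.

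For MCD against chow in Cre mice, 8 of the 9 members were lower on MCD and 0 higher (edgeR quasi-likelihood test, Benjamini-Hochberg over all 14062 genes, adjusted p under 0.05), where 28.2% of all tested genes were called lower. The median log2 fold change of the 9 was -6.40, that of all tested genes 0.01. In FLCN KO mice 9 of 9 were lower, where 22.5% of all tested genes were called lower, with a median of -5.76 against 0.00 for all genes. The groups did not overlap for 6 of 9 members in Cre mice, where that held for 16.9% of all tested genes in this direction, and for 6 of 9 in FLCN KO mice, where it held for 14.8%. Without the 5 Xist livers that also held Y-linked counts, the calls were 8 and 9 again. Of the 14038 genes tested there, 3427 and 2230 were called lower. In Xist livers alone 8 of 9 members were called lower in Cre and 7 of 9 in FLCN KO mice. There 3683 and 2923 of 14095 tested genes were called lower. In the 7 Xist livers without many Y-linked counts, with FLCN KO Chow as a single liver, 8 members were tested. In Cre mice the log2 fold change was above 0 for Mup20 (2.58) and below 0 for the others. In FLCN KO mice it was above 0 for Mup20 (2.82) and Mup21 (0.84) and below 0 for the others. Mup1, Mup7, Mup11 and Mup21 were not called there. These are bulk samples, in which fewer cells of a type and less RNA per cell cannot be told apart.

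Among the outer members, Mup3 was the most abundant by count on chow and its rows are nearly free of shared reads. In Cre Chow its CPM ran from 3644 over a median of 11126 to 21494. In Cre MCD the 5 livers had 112, 80.6, 278, 154 and 74.5 CPM. All of the MCD livers lay below all of the chow livers, a log2 fold change of -6.40 ± 0.61 (SE, adjusted p = 2.22e-08).

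In FLCN KO Chow the 5 livers had 9780, 5610, 10199, 2832 and 2357 CPM of Mup3. In FLCN KO MCD they ran from 69.7 over a median of 119.5 to 131 CPM. Again no liver of one diet reached the other (log2 fold change -5.76 ± 0.55, adjusted p = 4.91e-08). The fall was present in Y livers alone (-6.43 ± 0.31 in Cre and -6.42 ± 0.26 in FLCN KO mice, adjusted p = 2.17e-06 and 8.71e-07) and in Xist livers alone (-5.72 ± 0.39 and -5.05 ± 0.38, adjusted p = 2.47e-07 and 1.59e-06), each from an edgeR fit of those livers only. In the 7 Xist livers without many Y-linked counts it was -5.75 ± 0.38 and -4.55 ± 0.38 (adjusted p = 1.79e-05 and 0.000313), where FLCN KO Chow is a single liver that is assumed to vary like the others.

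Mup21, the gene next to Mup3 and its closest relative, had smaller falls in value than Mup3, a difference that was not tested. In Cre Chow it ran from 34.0 over a median of 445 to 1861 CPM, and in Cre MCD the livers had 10.1, 8.75, 29.3, 13.6 and 8.45 CPM. The highest MCD liver was still below the lowest chow liver (log2 fold change -5.60 ± 1.07, adjusted p = 0.000142). In FLCN KO Chow the values were 318, 64.2, 257, 31.4 and 11.0 CPM, and in FLCN KO MCD they ran from 12.1 over 20.7 to 29.0. These groups overlapped, because 1 Xist liver on chow lay below all 6 MCD livers, and the fall of -2.72 ± 0.89 (adjusted p = 0.0160) was called with all livers and in Y livers alone (-3.72 ± 0.45, adjusted p = 0.000326) but not in Xist livers alone (-0.87 ± 0.48, adjusted p = 0.160), and in the 7 Xist livers without many Y-linked counts the value was above 0 (0.84 ± 0.24, adjusted p = 0.0544). Leaving out FLCN KO Chow 1 ended this call (-2.13, adjusted p = 0.0581).

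Of the central members, Mup7 had the widest span. In Cre Chow the Y livers had 5369, 5484 and 7079 CPM and the Xist livers 254, 91.2 and 14.5. In Cre MCD the livers had 0.494, 0.172, 21.1, 1.21 and 4.46 CPM. The highest MCD liver, Cre MCD 3, exceeded the lowest chow liver, so the groups touched, and the log2 fold change was -9.12 ± 1.97 (adjusted p = 0.000493). Without Cre MCD 3 it was -10.94 (adjusted p = 0.000332).

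In FLCN KO mice Mup7 went from 4468 and 3779 CPM in the Y livers and 334, 203 and 1.83 in the Xist livers on chow to a range of 0.391 to 6.85 CPM on MCD (median 1.73). The overlap here came from FLCN KO Chow 5 alone, an Xist liver with 34 counts of Mup7. The fall was -9.42 ± 1.85 (adjusted p = 0.000298). In Y livers alone it was -9.04 ± 1.12 in Cre and -9.88 ± 0.97 in FLCN KO mice (adjusted p = 0.000263 and 9.22e-05), and in Xist livers alone -6.22 ± 1.53 and -8.03 ± 1.72 (adjusted p = 0.00400 and 0.00258). In the 7 Xist livers without many Y-linked counts it was -4.56 ± 1.06 in Cre mice (adjusted p = 0.00899), and in FLCN KO mice the call was lost (-1.20 ± 1.63, adjusted p = 0.673).

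Mup17 and Mup11 were also lower on MCD in both genotypes. Mup17 ran from 149 to 2717 CPM in Cre Chow and from 0.0862 to 7.78 in Cre MCD, without overlap (log2 fold change -8.99 ± 1.38, adjusted p = 1.21e-05). In FLCN KO mice it ran from 13.2 to 1495 on chow and from 2.22 to 4.32 on MCD, again without overlap (-7.58 ± 1.21, adjusted p = 3.08e-05). Mup11 fell by 8.46 ± 1.53 on the log2 scale in Cre and by 7.84 ± 1.41 in FLCN KO mice (adjusted p = 7.92e-05 and 0.000119), and its groups did not overlap in either genotype, though the margin was small: in Cre mice the lowest chow liver had 3.83 CPM and the highest MCD liver 2.91. Mup17 in the 7 Xist livers without many Y-linked counts was at -7.77 ± 0.65 in Cre and -2.51 ± 0.61 in FLCN KO mice (adjusted p = 5.09e-05 and 0.0303). Mup11 was called there in Cre mice (-4.66 ± 0.72, adjusted p = 0.00116) and not in FLCN KO mice (-2.85 ± 0.81, adjusted p = 0.0513).

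Mup1, Mup2 and Mup10 were counted far less often. Mup1 ran from 0.852 to 337 CPM in Cre Chow and from 0.129 to 2.58 in Cre MCD, with overlap, and from 0.431 to 147 in FLCN KO Chow and 0.0541 to 0.430 in FLCN KO MCD. The latter groups did not overlap, but 8 counts in the lowest chow liver stood against 1 to 10 on MCD. Its log2 fold changes were -7.55 ± 1.53 and -7.29 ± 1.51 (adjusted p = 0.000255 and 0.000497). In Xist livers alone they were -4.27 ± 1.10 and -4.69 ± 1.13 (adjusted p = 0.00549 and 0.00540), and in the 7 without many Y-linked counts -3.94 ± 0.86 in Cre mice (adjusted p = 0.00683) and -0.35 ± 1.19 in FLCN KO mice, where the call was lost (adjusted p = 0.876). Mup2 fell from a median of 8.33 to 0.535 CPM in Cre mice (-3.70 ± 0.56, adjusted p = 1.00e-05) and from 5.94 to 0.690 in FLCN KO mice (-3.12 ± 0.52, adjusted p = 5.69e-05). Mup10 had 0 to 9 counts in every MCD liver and 8 to 194 in every chow liver, and fell by 5.13 ± 0.99 in Cre and by 4.91 ± 1.00 in FLCN KO mice (adjusted p = 0.000158 and 0.000417). With limma-voom, which weighs the livers by their counts, Mup1 and Mup11 were not called in either genotype (adjusted p of 0.0539 to 0.257), nor was Mup21 in FLCN KO mice (adjusted p = 0.131).

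Mup20, darcin, differed from the others in the order of its livers. In Cre Chow the Y livers had 3486, 3173 and 5700 CPM and the Xist livers 187, 68.5 and 28.0. In Cre MCD the 5 livers had 334, 229, 526, 368 and 348 CPM. The MCD livers of both kinds thus fell between the Y and the Xist livers on chow, and the difference between the diets was not called (log2 fold change -2.55 ± 1.10, adjusted p = 0.0526 by edgeR; exact two-sided permutation test on log2 CPM, p = 0.682, n = 6 and 5). DESeq2 did call it lower on MCD (-2.53 ± 1.00, adjusted p = 0.0219).

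In FLCN KO Chow the Y livers had 5455 and 5744 CPM of Mup20 and the Xist livers 623, 312 and 31.4. In FLCN KO MCD the values ran from 185 over 216 to 292 CPM. edgeR called the fall (-3.46 ± 1.09, adjusted p = 0.0127), while the exact permutation test on log2 CPM gave p = 0.260 (n = 5 and 6), and the groups overlapped. limma-voom did not call it (adjusted p = 0.265), nor did edgeR with sex as a covariate (adjusted p = 0.0554). Split by kind, Y livers fell by 3.18 ± 0.32 in Cre and by 4.61 ± 0.30 in FLCN KO mice (adjusted p = 8.52e-05 and 1.05e-05). Xist livers differed by 1.68 ± 0.77, higher on MCD, in Cre mice (adjusted p = 0.0807) and by -0.61 ± 0.75 in FLCN KO mice (adjusted p = 0.543). When the 5 Y livers on chow were left out and all MCD livers kept, Mup20 was higher on MCD in Cre mice (1.93 ± 0.66, adjusted p = 0.0211). In the 7 Xist livers without many Y-linked counts it was higher on MCD in both genotypes (2.58 ± 0.38 and 2.82 ± 0.51, adjusted p = 0.000909 and 0.00897), with 68.5 and 28.0 CPM in Cre Chow against 229 and 348 in Cre MCD and 31.4 in the 1 FLCN KO Chow liver against 231 and 213 in FLCN KO MCD. The Xist livers with the fewest Y-linked counts on chow, Cre Chow 4 and FLCN KO Chow 5 with 15 and 4, had the lowest Mup20 of all 22 livers.

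**Figure D3:**
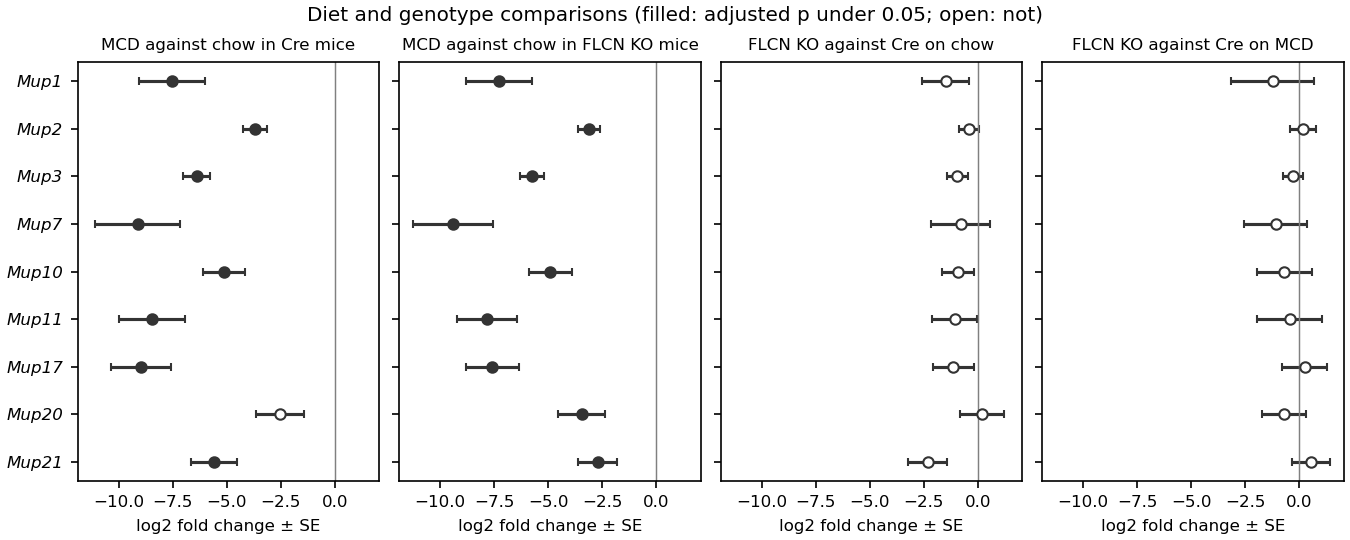
Log2 fold changes (points) ± SE (bars) of the 9 genes in the 4 comparisons, from 1 edgeR fit of all 22 livers; filled points passed an adjusted p of 0.05. The diet comparisons span -9.42 to -2.55, with Mup20 in Cre mice as the only open point, and all 18 points of the genotype comparisons are open.

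The second question was whether the loss of Flcn changed the family. On chow 0 of 9 members were called between FLCN KO and Cre livers, where 8.62% of all tested genes were called. At an unadjusted p under 0.05 the count was 1 of 9 (Mup21), and DESeq2 and limma-voom called 0. The log2 fold changes ran from -2.32 ± 0.91 (Mup21, adjusted p = 0.116) to 0.21 ± 1.01 (Mup20, adjusted p = 0.934), and 8 of 9 were below 0. The livers of each group span both sexes, and that span enters these standard errors.

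Within Y livers on chow, 3 Cre and 2 FLCN KO livers, 8 of 9 members were lower in FLCN KO livers without overlap, all but Mup20, where that held for 17.2% of all tested genes. In Xist livers it held for 1 of 9 (Mup17), against 14.8% of all tested genes. Mup21 in Y livers had 803, 1260 and 1861 CPM in Cre and 318 and 257 CPM in FLCN KO livers, without overlap, and in the fit of Y livers alone it was lower in FLCN KO livers (-2.16 ± 0.47, adjusted p = 0.0409). Mup3 had 16526, 18894 and 21494 CPM in Cre and 9780 and 10199 in FLCN KO livers, without overlap but not called (-0.90 ± 0.23, adjusted p = 0.0866). Of the 8, Mup21 was the only member called in Y livers. Mup20 was at 0.47 ± 0.28 (adjusted p = 0.534). In Xist livers alone 0 of 9 were called, and Mup21 had -0.59 ± 0.47 (adjusted p = 0.529). In the 7 Xist livers without many Y-linked counts the log2 fold change was -1.73 for Mup21 and -3.84 for Mup17, from 1 FLCN KO Chow liver against 2 of Cre Chow. A single liver has no spread of its own, so these values do not test the genotype. Whether the genotype acted differently in Y and Xist livers was not tested, and only 2 FLCN KO Y livers on chow stand behind the call in Y livers.

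On MCD 0 of 9 members were called between the genotypes, where 16.6% of all tested genes were called. At an unadjusted p under 0.05 the count was also 0, and DESeq2 and limma-voom called 0. The values ran from -1.22 ± 1.91 (Mup1) to 0.56 ± 0.87 (Mup21). Mup20 was lower in FLCN KO livers by 0.70 on the log2 scale, with medians of 216 against 348 CPM; its standard error was 1.01 in the fit of all 4 groups (adjusted p = 0.698) and 0.18 in a fit of the MCD groups alone (adjusted p = 0.0214), and the exact permutation test gave p = 0.0152, 1 of 36 such tests over the members and the 4 comparisons. The ranges, 229 to 526 in Cre and 185 to 292 in FLCN KO livers, overlapped. In Xist livers alone 0 of 9 were called, and in the 7 without many Y-linked counts Mup21 was called higher in FLCN KO livers (1.19 ± 0.19, adjusted p = 0.0143).

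For the interaction, the difference between the 2 diet effects, 0 of 9 members were called, where 8.83% of all tested genes were called. At an unadjusted p under 0.05 there was 1, Mup21 (2.88 ± 1.25, adjusted p = 0.155), and DESeq2 and limma-voom called 0. The diet effects of the genotypes share no liver, and their values stood within 1 SE of the difference for Mup1, Mup2, Mup3, Mup7, Mup10, Mup11, Mup17 and Mup20. In Xist livers alone 0 of 9 were called. In the 7 without many Y-linked counts, with 1 FLCN KO Chow liver, the interaction was 2.92 for Mup21 and 5.26 for Mup17.

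Y and Xist livers differed widely on chow. On chow the mean log2 CPM was higher in Y than in Xist livers for 9 of 9 members (5 and 6 livers), by 1.47 (Mup2) to 6.43 (Mup7), with a median of 4.34. On MCD it was higher by 0.24 (Mup20) to 2.50 (Mup7), with a median of 0.83, and it was smaller than on chow for 9 of 9. Without the 5 Xist livers that also held Y-linked counts the medians were 4.81 and 0.88, again smaller on MCD for 9 of 9. Mup1, Mup2, Mup7, Mup10, Mup11 and Mup17 had under 10 counts in at least 1 MCD liver, while Mup3, Mup20 and Mup21 had at least 165 in each. For Mup20 the difference was 5.32 on chow and 0.24 on MCD, for Mup3 1.90 and 0.63, and for Mup21 4.21 and 0.62.

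Lists of other genes with a known sex bias in mouse liver moved alike. Of 15 tested male-biased genes, 15 were higher in Y livers on chow (median difference 4.30) and the difference was smaller on MCD for 15 (median 0.63). Of 21 female-biased genes, 21 were lower in Y livers on chow (median -7.09) and the difference was smaller on MCD for 21 (median -0.26). Cyp2b9, a female-specific cytochrome P450, ran from 0.161 to 2.22 CPM in Y livers and from 399 to 589.8 in Xist livers on chow, and from 142 to 253 in Y livers and 112 to 228 in Xist livers on MCD. Elovl3, a male-biased fatty acid elongase, went the other way, from 308 to 605 CPM in Y livers on chow to 1.53 to 3.84 on MCD, with 0.485 to 50.8 and 2.05 to 4.00 in Xist livers. On MCD the differences still ran from -0.18 to 2.44 over the male-biased and from -4.68 to 0.99 over the female-biased genes. Without the 5 Xist livers that also held Y-linked counts the medians on chow and MCD were 5.28 and 0.72 for the male-biased and -7.92 and -0.06 for the female-biased genes. Among all livers, 12 of 15 male-biased genes were lower on MCD in Cre and 12 in FLCN KO mice, with 0 higher (medians -5.02 and -4.58). Of the 21 female-biased genes 7 and 6 were lower and 0 higher, near the 28.2% and 22.5% of all tested genes called lower. Y and Xist livers moved mostly in opposite directions in this list, as given below.

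**Figure D4:**
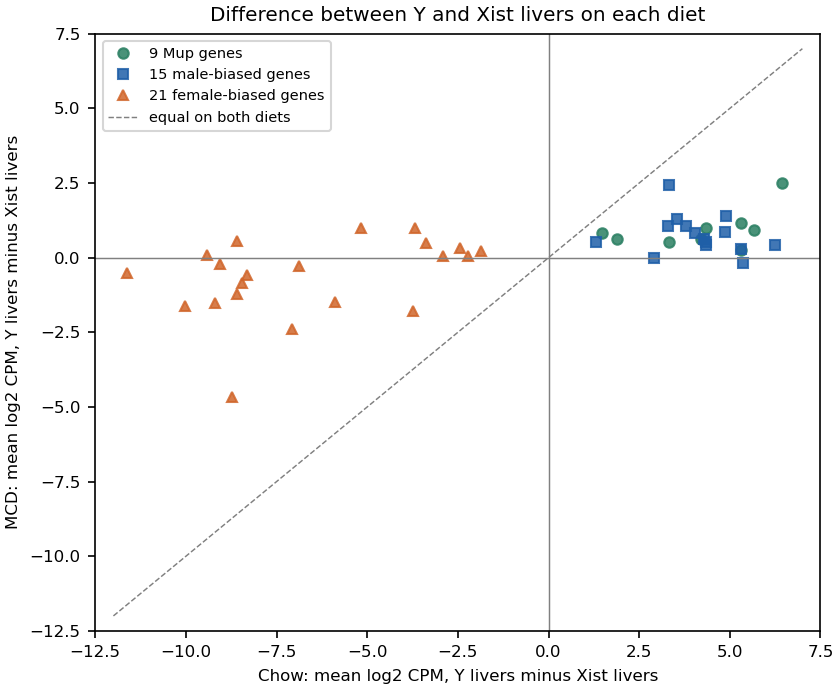
Difference in mean log2 CPM between Y and Xist livers on chow (horizontal) and on MCD (vertical) for the 9 Mup genes, 15 male-biased and 21 female-biased genes; the dashed line marks equal differences. All points lie nearer to 0 on MCD than on chow, with medians of 4.34 and 0.83 for the Mup genes and -7.09 and -0.26 for the female-biased genes.

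In the Xist livers on chow, 3 in each group, Mup1, Mup7, Mup11, Mup20 and Mup21 had the order of the Y-linked counts in both groups. Mup2 did not in FLCN KO Chow, nor Mup3, Mup10 and Mup17 in Cre Chow. How many of all tested genes had this order was not counted, so it is not shown to be particular to these members. The members also vary together over these livers and are not separate observations. Written as a percentage of the mean of the Y livers of the same group, the Y-linked genes stood at 5.52%, 1.59% and 0.461% in Cre Chow 2, 3 and 4, and Mup7 at 4.25%, 1.53% and 0.242%. In FLCN KO Chow 2, 4 and 5 the Y-linked genes stood at 14.1%, 6.21% and 0.113%, and Mup7 at 8.10%, 4.91% and 0.0444%. The order of the 6 livers was the same in both. Mup20 stood at 4.54%, 1.66% and 0.679% and at 11.1%, 5.57% and 0.560%, again in that order within each group. Mup3 had 30.2%, 19.2% and 24.8% in Cre Chow and 56.2%, 28.3% and 23.6% in FLCN KO Chow, and Mup2 had 24.8% to 56.3%. What part RNA from Y livers had in the Mup7 and Mup20 counts of these Xist livers was not tested. In the Xist livers on MCD Mup7 did not keep this order. The Y-linked genes stood at 18.2%, 1.07% and 0.269% in Cre MCD 1, 2 and 5, and Mup7 at 4.43%, 1.55% and 40.0%. In FLCN KO MCD 3, 5 and 6 they stood at 7.15%, 0% and 0.0845%, and Mup7 at 9.86%, 8.91% and 27.2%. Mup20 stood at 51.2% to 77.9% in Cre MCD and at 81.8% to 99.7% in FLCN KO MCD. The Mup7 mean of the Cre MCD Y livers rests mostly on Cre MCD 3 (21.1 CPM, against 1.21 in Cre MCD 4).

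**Figure D5:**
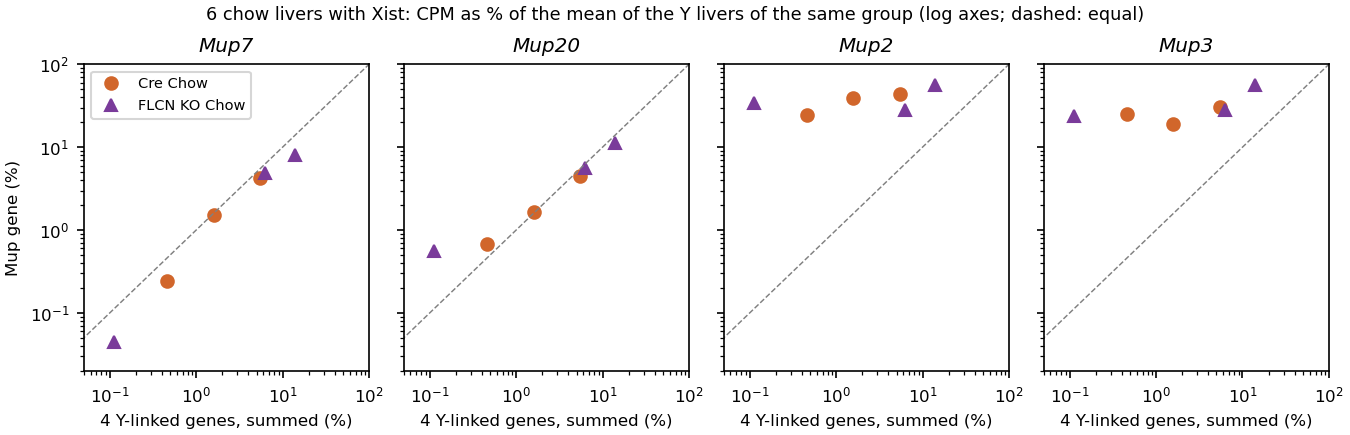
Mup7, Mup20, Mup2 and Mup3 (vertical) against the summed Y-linked genes (horizontal) in the 6 Xist livers on chow, both as percent of the mean of the Y livers of the same group on log axes; circles are Cre Chow, triangles FLCN KO Chow, and the dashed line marks equal percentages. Mup7 (0.0444% to 8.10%) and Mup20 (0.560% to 11.1%) rise with the Y-linked genes, and Mup2 and Mup3 (19.2% to 56.3%) lie above the line.

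Levels can be compared between members only per length. Per 1000 exon bases, Y livers on chow had 14399.6 ± 4893 CPM of Mup3, 5077 ± 1370 of Mup20, 5068 ± 1204 of Mup7 and 2176 ± 722 of Mup17 (SD, n = 5), followed by Mup21, Mup11, Mup1, Mup2 and Mup10. Over the Y livers of both genotypes Mup20 and Mup7 did not differ beyond their spread. On this scale Mup20 lay below Mup7 in each Cre Y liver and above it in each FLCN KO Y liver. Per 1000 windows of its own Mup7 came first with 25051 ± 5950 CPM, before Mup3 with 14266 ± 4848 and Mup20 with 9775 ± 2638. These means pool the genotypes. In the FLCN KO Y livers Mup20 had 5455 and 5744 CPM over 482 such windows and Mup3 9780 and 10199 over 1078. Mup20 thus came before Mup3 there, and Mup7 was still first. The first place thus differed between the 2 scales. The second scale holds only if shared reads were left out of the counts, which was not tested. On MCD Mup20 was first on both scales, with 343 ± 146 CPM per 1000 exon bases in Y livers (n = 5) and 277 ± 71.5 in Xist livers (n = 6), against 147 ± 64.7 and 92.6 ± 25.5 for Mup3.

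The other rows of the family moved with the members. Of 40 other Mup rows, 21 were tested, 19 were under the minimum, and 5 had no count at all. In Cre mice 21 of 21 were lower on MCD (median log2 fold change -5.38), and in FLCN KO mice 18 of 21 (median -5.09). The share of all tested genes called lower was 28.2% and 22.5%. Mup14 was the most abundant of them, with 1042 CPM in Cre Chow and 2.73 in Cre MCD as group means (-8.58, adjusted p = 0.000383). Mup6, which shares no window with another gene, fell by 4.81 in Cre and by 4.95 in FLCN KO mice, and Mup-ps20, a pseudogene whose windows are also all its own, by 5.38 and 6.07. The pseudogenes Mup-ps12, Mup-ps14 and Mup-ps16 were not called in FLCN KO mice, and Mup-ps14 and Mup-ps16 were higher in FLCN KO than in Cre livers on MCD (1.95 and 1.62, adjusted p = 0.0441 and 0.0396). With the 9 members, the tested rows were Mup5, Mup8, Mup9, Mup12, Mup13, Mup15, Mup16, Mup18, Mup19, Mup22, Mup-ps6, Mup-ps13, Mup-ps17, Mup-ps18 and Mup-ps22 besides those named.

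Genes just outside the cluster did not share the fall. Of the 8 coding genes on each side, 14 of 16 were tested. In Cre mice 3 were higher and 3 lower on MCD, with a median of 0.08, and in FLCN KO mice 3 were higher and 2 lower, with the same median of 0.08. The share of all tested genes called lower was 28.2% and 22.5%. The largest fall was that of Slc31a1, a copper transporter, with -0.89 in Cre and -0.78 in FLCN KO mice (adjusted p = 5.72e-08 and 5.79e-07), and the largest rise that of Wdr31 with 2.77 and 2.09. E130308A19Rik fell by 0.71 and 0.57.

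Many listed genes of the growth hormone pathway and of liver transcription factors were lower on MCD. Of the 22 genes listed, 17 were lower and 0 higher in Cre mice (median -0.99 against 0.01 for all genes) and 12 and 0 in FLCN KO mice (median -0.54). The share of all tested genes called lower was 28.2% and 22.5%. Y livers alone gave 12 lower and 1 higher in Cre and 8 and 1 in FLCN KO mice. There 2101 and 1603 of 13967 tested genes were called lower. Xist livers alone gave 18 and 1 and 11 and 1, where 3683 and 2923 of 14095 tested genes were called lower. In the 7 Xist livers without many Y-linked counts, with 1 FLCN KO Chow liver, the medians were -1.16 and -0.45. Ghr, the growth hormone receptor, went from 639 ± 79.3 CPM (SD, n = 6) to 127 ± 49.2 (n = 5) in Cre mice (log2 fold change -2.33 ± 0.19, adjusted p = 1.70e-09) and from 599.9 ± 100.02 (n = 5) to 198 ± 27.5 (n = 6) in FLCN KO mice (-1.60 ± 0.17, adjusted p = 2.68e-07). Onecut1 (HNF6) fell by 2.77 and 2.31, Bcl6, a repressor that opposes STAT5, by 2.13 and 3.06, Igfals, which carries IGF1 in blood, by 2.14 in Cre mice, and Igf1 by 1.38 in FLCN KO mice.

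In the fit of all livers Stat5b was the only 1 of the 22 whose diet effect was called different between the genotypes. The count was 0 in Y livers alone, 4 in Xist livers alone and 2 in the 7 Xist livers without many Y-linked counts. It stood at 67.0 ± 11.1 CPM in Cre Chow, 69.6 ± 8.25 in FLCN KO Chow, 29.8 ± 2.84 in Cre MCD and 52.0 ± 8.69 in FLCN KO MCD (SD, n = 6, 5, 5 and 6). The interaction was 0.75 ± 0.17 (adjusted p = 0.0118), and on MCD FLCN KO livers had more of it (0.80 ± 0.12, adjusted p = 0.000156), as of Igfals (1.08), Ghr (0.64) and Stat5a (0.61). The members themselves were not called between the genotypes on MCD.

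The largest falls among the male-biased genes were those of Moxd1 (-9.76), Serpina1e (-9.15), Hsd3b5 (-7.67) and Selenbp2 (-7.59) in Cre mice and of Serpina1e (-9.62), Slco1a1 (-8.28), Selenbp2 (-8.25) and Hsd3b5 (-8.03) in FLCN KO mice. Of the female-biased genes the largest called falls in Cre mice were those of Sult3a1, a sulfotransferase (-9.71), A1bg (-7.36), Cyp3a16 (-6.24) and Cyp3a41b (-3.88). In FLCN KO mice they were those of Sult3a1 (-6.99), A1bg (-4.56), Cyp17a1 (-3.69) and Cyp2b10 (-3.51). The pooled count for this list hides opposite directions: in Y livers alone 14 of 18 tested female-biased genes were higher on MCD and 0 lower in either genotype, while in Xist livers alone 16 of 21 were lower and 0 higher in Cre mice and 11 lower and 4 higher in FLCN KO mice. In the 7 Xist livers without many Y-linked counts 16 were lower and 1 higher in Cre mice and 10 lower and 1 higher in FLCN KO mice. Of the male-biased genes, 14 of 15 were lower and 0 higher in Y livers alone in either genotype. Among the 13967 genes tested in Y livers, 2101 in Cre and 1603 in FLCN KO mice were called lower, and 2584 and 1302 higher. In Xist livers the counts were 3683 and 2923 lower and 3717 and 2816 higher, of 14095. In Xist livers alone 8 of 14 were lower and 4 higher in Cre mice and 8 lower and 1 higher in FLCN KO mice, and in the 7 without many Y-linked counts 8 were lower and 4 higher and 5 lower and 3 higher.

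Other lipocalins behaved in different ways. Of 13 listed, 9 were tested. In Cre mice 5 were lower and 2 higher on MCD, and in FLCN KO mice 6 were lower and 0 higher. The share of all tested genes called lower was 28.2% and 22.5%. Lcn2, an iron-binding protein of the acute phase, rose from 36.9 ± 44.3 CPM to 559 ± 196 in Cre mice (3.93 ± 0.65, adjusted p = 2.91e-05), and on MCD was lower in FLCN KO livers (-2.64 ± 0.62, adjusted p = 0.00512). Orm2, an orosomucoid, rose by 2.31 in Cre mice. Ptgds fell by 4.30 and 2.13 and C8g by 2.09 and 2.02, and in FLCN KO mice Orm3 fell by 2.46 and Apom by 1.06. Between the genotypes on MCD Ptgds (2.95) was higher and Orm2 (-1.99) and Orm1 (-0.43) lower in FLCN KO livers, and the interaction of Ptgds was 2.17; on chow C8g, Rbp4 and Ambp were lower (-0.43, -0.35 and -0.30).

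Across the 22 livers the genes outside the family whose log2 CPM lay closest to that of the summed members were Srd5a1, Hao1, Selenbp2, Serpina1e, Ldhd, Aox3, Slco1a1, Mgst1, Ugt2b1 and Keg1, with Pearson r from 0.986 (Srd5a1) to 0.971 (Keg1). The lowest r belonged to Cyp4a14 (-0.986), Itga6, Abcb1a, App and Tmem139 (-0.963). The livers form clusters by diet and by sex, so these values describe a shared split more than a gradient. After the group means were removed, which leaves mainly the difference between Y and Xist livers, Alas2 (0.981), Trip4, C6, C730027H18Rik and C8b were highest. Among the members, r after removal of group means was lowest for Mup2 with Mup7 (0.597).

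Cell type markers were used to see what else differed between the samples. Over all 14062 tested genes 28.2% were called lower in Cre and 22.5% in FLCN KO mice, and 4121 and 3162 were called higher. Hepatocyte markers were abundant in every liver, with Alb at 46620 to 85322 CPM among MCD livers, and 12 of the 16 listed were lower and 1 higher on MCD in Cre mice, with a median of -0.96, and the same counts with a median of -0.69 in FLCN KO mice. Stellate cell markers were higher on MCD for 6 of 8 in Cre mice and 1 of 8 in FLCN KO mice (for the latter 1 was lower). Leukocyte markers were higher for 3 and 2 of 7, with 0 and 3 lower. Cholangiocyte markers were higher for 3 and 0 of 5, macrophage markers for 2 and 0 of 7 with 2 and 3 lower, endothelial markers lower for 4 and 5 of 6, and erythroid markers higher for 3 and 0 of 5 with 0 and 1 lower. Skeletal muscle markers were higher for 7 of 7 in Cre and 0 of 7 in FLCN KO mice. Cre MCD 3, the MCD liver with the highest sum of members, also had the most skeletal muscle RNA, 1729 CPM over 7 markers with Acta1 at 599, against 0.769 to 88.4 in the other 4 Cre MCD livers. What part these differences had in the Mup values was not tested, and without Cre MCD 3 the count of members called was 8 in Cre mice.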

How the data were processed

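The deposited values are read counts per gene, one table for 22 libraries. Per the labels and the study's methods, the authors made them from single 75-base reads with bcl2fastq, Trimmomatic, STAR and HTSeq on GRCm38; versions, annotation release, strand setting and treatment of multi-mapped reads are not given in the sources used here. Nothing says that the libraries of a group came from separate litters, so p-values measure the spread between these samples. Members and gene lists were chosen with earlier results of these data known.

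Counts were fitted with edgeR 4.0.16 (R 4.3.3; TMM, quasi-likelihood test) in 1 model of the 4 groups, for the 14062 of 55573 genes whose counts averaged 10 or more, with Benjamini-Hochberg adjustment and a threshold of 0.05. CPM used TMM library sizes. On simulated counts for MCD against chow in Cre mice (13929 genes, 200 changed), 69% of log2 changes of 1 and 97% of those of 3 were recovered, and 41% and 98% for the interaction (13941 genes). The changed genes were picked at random, and the simulated counts held no difference between Y and Xist livers. These shares therefore do not measure how often a change in the members would be called. Single members were also tested by an exact two-sided permutation of log2 CPM, whose smallest p is 0.00216. Alternatives were DESeq2 1.42.0, limma-voom (limma 3.58.1), other filters and scalings, a replicate block, sex as a covariate, Y or Xist livers alone, and each library left out. Leaving out the Xist livers with over 100 Y-linked counts, from all livers or from the Xist livers, was chosen after seeing the data. Genes named from the regulator, sex-biased and lipocalin lists were those with the largest called changes of each list. Cyp2b9 and Elovl3, shown as examples, were not picked by this rule. Windows and coding sequences came from GENCODE M21 transcripts (GRCm38), promoters from RefSeq (GRCm38.p6).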

Additional observations from a re-analysis of the deposited data

Results flagged for a closer look

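Among the 36 sets formed by 9 members and 4 groups, 7 held a liver whose distance from its nearest neighbour was large against the range of its group. For independent values from 1 normal distribution, chance alone marks about 1 group in 20. That rate does not hold for these sets, which share livers, mix Y and Xist livers and come from genes that vary together.

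Of these, 5 belonged to Cre MCD 3, a Y liver and the highest of its group each time, with 2.58 CPM of Mup1, 21.1 of Mup7, 2.91 of Mup11, 7.78 of Mup17 and 29.3 of Mup21. This is also the liver with 1729 CPM of skeletal muscle markers. FLCN KO MCD 6, an Xist liver, had the lowest Mup3 of its group, 69.7 CPM. FLCN KO MCD 4, a Y liver, had the highest Mup11 of its group, 1.44 CPM, from 34 counts.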

How the results depend on the processing

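Of 1570 values of the members over 36 settings, 1536 kept their direction and side of the threshold or changed sign with neither value past it (60), 16 lost the threshold, 14 gained it and 4 changed sign with a value past it. These 4 were Mup20 in Cre mice without the 5 Y livers on chow (1.93) and, in the 7 Xist livers with few Y-linked counts, Mup20 in Cre (2.58) and FLCN KO mice (2.82) and Mup21 in FLCN KO mice (0.84). In those 7 livers, with fewer samples, members called were 4 of 8 tested for diet in FLCN KO mice, 2 and 1 for genotype on chow and MCD and 2 for the interaction, and all genes called 1720, 136, 509 and 112. The count of members called was 2 and 3 of 3 tested in Cre and FLCN KO mice when every library needed 10 counts, since fewer genes were tested, 5 of 9 in FLCN KO mice with limma-voom, 1 for the genotype on chow in Y livers, and 1 of 8 for the genotype on MCD with only those groups fitted; the cause of the last 3 was not tested. All genes called in Y livers, with fewer samples, were 4685 and 2905 for diet in Cre and FLCN KO mice, 335 and 720 for genotype on chow and MCD, and 63 for the interaction. In Xist livers 627 were called for genotype on chow. Without the 5 Y livers on chow there were 495 for genotype on chow and 783 for the interaction. Without the 5 Xist livers with Y-linked counts there were 460 and 1200 for genotype on chow and MCD and 83 for the interaction. With 1 library left out, members called ranged from 8 to 9 in both diet comparisons and stayed at 0 in the others. All genes called ranged from 7595 to 8165 and from 5613 to 6591 for diet, from 669 (without FLCN KO Chow 4) to 1428 and from 1770 to 2466 for genotype, and from 813 (without FLCN KO Chow 4) to 1422 for the interaction, with 817 without Cre MCD 1. Mup20 in Cre mice was called without any 1 of Cre Chow 2, 3 or 4 or FLCN KO Chow 4 or 5 (adjusted p of 0.0237 to 0.0487). With sex as a covariate it was not called in either genotype (edgeR, adjusted p = 0.494 and 0.0554). When replicate numbers entered as a block, 8 members were called in each diet comparison (Mup20 lost in FLCN KO mice, adjusted p = 0.0676) and 552 genes for the interaction. Nothing in the labels ties same-numbered livers together, and their deviations from the group means had r of -0.551 to 0.470 over all pairs of groups. Between the genotypes on MCD r was above 0 for all 5 numbers (0.0621 to 0.262). Between the chow groups it was above 0 for the 3 numbers whose livers were both Y or both Xist and below 0 for the other 2, so these r do not show whether the numbers pair the livers. Leaving out 1 library moved some diet folds by over 1.5 times. Without Cre MCD 3 the log2 fold changes in Cre mice were -8.90 for Mup1, -4.36 for Mup2, -10.94 for Mup7, -9.51 for Mup11 and -9.99 for Mup17, and without Cre Chow 6 they were -4.99 for Mup21 and -1.95 for Mup20. In FLCN KO mice they were -6.34 for Mup1, -8.71 for Mup7 and -6.90 for Mup17 without FLCN KO Chow 1, -7.06 for Mup11 and -2.86 for Mup20 without FLCN KO Chow 3, and -10.02 for Mup7 without FLCN KO MCD 4. Genotype and interaction values, none called with 1 library left out, moved as well. Mup1 on MCD ran from -1.50 to 0.13, Mup20 on chow from -0.39 to 0.81 and Mup21 on chow from -2.91 to -1.71. The interaction of Mup21 ran from 2.27 to 3.47. Windows shared with near-identical copies and counts under 10 in MCD livers limit the central members.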
